A study of Mus musculus with 36 samples.

Results

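The genes described here are the interleukins and interleukin receptors of a targeted panel read in the mouse colon, in colon tumours and in MC-38 tumours. They are the 22 genes whose symbol starts with Il and a digit, of 988 genes on the panel. The 7 genes Il1a, Il1b, Il6, Il4, Il13, Il10 and Il2ra also fit that pattern but were not among the members. The rule uses symbols and no measured value, though it was set with earlier results of these data known. The members comprise 10 ligands (Il2, Il7, Il12b, Il15, Il17a, Il17b, Il18, Il21, Il22 and Il33) and 12 receptor chains (Il1r1, Il1r2, Il1rap, Il2rb, Il2rg, Il5ra, Il12rb1, Il12rb2, Il13ra2, Il17ra, Il17rb and Il21r).

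Interleukins are secreted proteins by which immune, epithelial and stromal cells signal to each other through paired receptor chains. In the colon, epithelial cells are a known source of IL-18, IL-33 is held in the nuclei of epithelial and stromal cells and released on damage, and IL-17A and IL-22 come from T cells and innate lymphoid cells and act on the epithelium. IL-7 and IL-15 support lymphocytes, and a few chains, such as IL-1R2 and IL-13Ra2, bind their ligand without passing on the usual signal and are known as decoy receptors.

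The colon and AOM tumour samples came from C57BL/6 mice, either wild type or carrying the Kit "sash" mutation (Kit-W/sh, called sash here), a regulatory mutation at the Kit locus that leaves the mouse short of mast cells and also lowers Kit in other cells. Colon tumours came from wild-type and sash mice (n = 5 each) in postnatal week 32, 18 weeks after the last of 6 intraperitoneal doses of azoxymethane (AOM, a colon carcinogen) of 10 mg/kg per week. Colon with preneoplastic lesions came from wild-type and sash mice (n = 3 each) in postnatal week 14, after 3 AOM injections over 3 weeks and a further 3 weeks. A second set of wild-type colon samples of that age formed the cromolyn experiment, with AOM only (n = 3), AOM together with cromolyn, a mast cell stabiliser, for 3 weeks (n = 3), and AOM followed by cromolyn for 3 weeks (n = 3). A separate table holds tumours of MC-38, a mouse colon carcinoma line, labelled saline-treated with a wild-type (n = 4 analysed) or sash genotype (n = 5 analysed), which is read here as that of the host. The study addresses the part of mast cells in the early steps of colon tumours. The MC-38 labels give neither age nor strain nor the site of growth.

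The libraries held 449880 to 1264354 counts, and 815 to 922 genes had at least 1 count in a library. Levels are given as CPM, counts scaled to a common library size with the TMM factors of edgeR over all libraries of a table, and 3 counts, taken here as the floor of detection, corresponded to 2.29 to 7.10 CPM. Kit itself was at 49.7 to 99.3 CPM in sash tumours against 95.3 to 476 CPM in wild-type tumours, and at 114 to 143 CPM in sash lesions against 334 to 509 CPM in wild-type lesions, while in MC-38 tumours it was low in both hosts (2.05 to 23.2 and 5.97 to 18.1 CPM). The summed level of 6 mast cell markers, Kit among them, was lower in every sash library than in every wild-type library within tumours (66.2 to 120 against 181 to 561 CPM), lesions (133 to 158 against 386 to 541 CPM) and MC-38 tumours (8.21 to 31.5 against 386 to 1151 CPM). In AOM tumours and lesions Kit itself made up much of this sum, which there largely repeats the Kit values. In MC-38 tumours of wild-type hosts Kit was a small part of it. Of the 9 names on a list of colon epithelium markers only Epcam and Car4 are on the panel, and their sum was 20265 to 89733 CPM in the colon and AOM tumours but 24.3 to 189 CPM in MC-38 tumours. Wild-type tumour 4 stood apart with high surface colonocyte markers and low neutrophil markers, and wild-type tumour 2 with a B cell marker sum of 641 CPM, and the counts of members called are also given without both. In bulk tissue, fewer cells of a type and less RNA per cell cannot be told apart.

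The members took up 0.395% to 1.10% of all counts in the colon and AOM tumour libraries and 0.204% to 0.271% in the MC-38 libraries. Levels are compared within a gene only, because amplicons differ in efficiency.

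Il33, Il1r2 and Il17a were the members higher in tumours than in lesions in both genotypes, and the 250 bases before their starts are shown here for that reason. They are RefSeq starts on the GRCm38.p6 build, which is not the build named for the counts, so no count was placed on them. The table holds 16 of the 22 members. Capitals mark matches to 4 motifs searched on both strands: NF-kappaB, AP-1 (TGANTCA), STAT (TTCNNNGAA) and an E-box (CACGTG). The Il33 start of entry 1 is at chr19:29924863-29925112 and that of entry 2 at chr19:29945540-29945789, Il1r2 at chr1:40085843-40086092 and Il17a at chr1:20730655-20730904, all on the plus strand.
Il33, entry 1: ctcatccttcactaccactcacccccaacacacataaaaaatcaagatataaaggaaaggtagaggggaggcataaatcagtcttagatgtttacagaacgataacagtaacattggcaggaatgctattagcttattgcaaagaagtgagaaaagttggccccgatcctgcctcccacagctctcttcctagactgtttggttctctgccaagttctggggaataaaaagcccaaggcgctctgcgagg
Il33, entry 2: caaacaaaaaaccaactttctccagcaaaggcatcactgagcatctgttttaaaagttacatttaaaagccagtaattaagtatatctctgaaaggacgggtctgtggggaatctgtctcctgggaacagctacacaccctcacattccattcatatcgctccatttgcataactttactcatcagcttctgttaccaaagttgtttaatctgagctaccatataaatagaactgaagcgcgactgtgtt
Il1r2: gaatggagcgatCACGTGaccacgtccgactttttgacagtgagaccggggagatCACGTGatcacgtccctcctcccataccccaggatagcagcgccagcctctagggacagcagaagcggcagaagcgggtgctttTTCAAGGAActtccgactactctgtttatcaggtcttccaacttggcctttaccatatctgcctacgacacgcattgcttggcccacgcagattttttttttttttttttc
Il17a: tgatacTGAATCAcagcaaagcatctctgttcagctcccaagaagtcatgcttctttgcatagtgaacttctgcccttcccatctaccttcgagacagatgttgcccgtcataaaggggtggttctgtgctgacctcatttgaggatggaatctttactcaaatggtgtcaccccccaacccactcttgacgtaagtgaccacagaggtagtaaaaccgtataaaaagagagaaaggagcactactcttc
The Il1r2 stretch held the E-box letters at -238 and -195 and the STAT letters at -111 from the start, and the Il17a stretch the AP-1 letters at -244, none of them overlapping. The Il33 stretches held none of the letters searched. Of 32851 promoters of the same length, 7.25% held the NF-kappaB motif, 6.75% AP-1, 7.02% STAT and 6.02% the E-box. These matches are descriptions of the letters and no measure of binding.

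Between lesions and AOM tumours 4 members passed in both genotypes: Il33, Il17a and the decoy receptor Il1r2 were higher in tumours, and Il17rb, a receptor chain for IL-25, was lower. In sash mice Il5ra and Il13ra2 were also higher and Il18, Il7 and Il15 lower. Tumours and lesions differ in age, in the number of AOM injections and in the time since AOM, and these cannot be told apart from stage.

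Il33 showed the largest of these differences among the ligands of the sash mice. In lesions it was at 90.2, 30.3 and 71.6 CPM in wild-type samples 1 to 3 and at 26.8, 37.5 and 67.2 CPM in sash samples 1 to 3. In tumours it reached 487, 668, 429, 169.6 and 432 CPM in wild-type samples 1 to 5 and 846, 952, 1734, 820.2 and 1153 CPM in sash samples 1 to 5. Every tumour lay above every lesion sample, and wild-type tumour 4 was the lowest tumour. The log2 difference was 2.74 in wild-type mice (SE 0.48, adjusted p = 0.000645, edgeR's quasi-likelihood test) and 4.61 in sash mice (SE 0.53, adjusted p = 1.27e-05). The stromal markers Col3a1, Pdgfrb and Fap, 3 of 9 names on that list, summed to 2838 to 11466 CPM in wild-type tumours and 4585 to 7270 CPM in sash tumours, against 1675 to 5936 CPM and 1666 to 8591 CPM in the lesions, and their part in the Il33 difference was not tested.

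Il17a, the ligand of the IL-17RA and IL-17RC receptor, was at 0, 4.54 and 2.83 CPM in wild-type lesions and 8.95, 19.4 and 5.89 CPM in sash lesions. Wild-type tumours 1 to 5 held 39.4, 45.1, 12.6, 5.17 and 21.3 CPM, and sash tumours 1 to 5 held 19.1, 101, 196, 173 and 58.6 CPM. The wild-type groups did not overlap, whereas sash tumour 1 lay just below the highest sash lesion. Log2 differences were 3.16 (SE 0.99, adjusted p = 0.0226) in wild-type and 3.24 (SE 0.86, adjusted p = 0.00643) in sash mice. Il17a passed the filter on low counts through the tumour groups, where it was high. The wild-type value rests on 6 counts in the lesions, and its adjusted p was 0.0839 without wild-type lesion 1 and 0.0655 without wild-type lesion 3.

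Il1r2, the decoy receptor for IL-1, was at 103, 51.5 and 31.1 CPM in wild-type lesions and 19.7, 43.1 and 22.4 CPM in sash lesions. Wild-type tumours held 256, 252, 216, 70.3 and 255 CPM, with only sample 4 inside the lesion range. Sash tumours held 442, 193, 285, 519 and 406 CPM, all above the lesions. The log2 difference was 1.75 in wild-type mice (SE 0.49, adjusted p = 0.0134; 0.0530 without wild-type lesion 3) and 3.69 in sash mice (SE 0.55, adjusted p = 0.000112). Neutrophils carry much IL-1R2. The neutrophil markers Cxcr2, Fpr1, Fpr2, Csf3r and Mpo, 5 of 10 names on that list, summed to 76.5 to 354 CPM in wild-type tumours, with the lowest value in sample 4, and to 522 to 912 CPM in sash tumours, against 13.2 to 24.8 CPM and 17.9 to 20.8 CPM in the lesions, where Mpo was at 0. Their part in the Il1r2 difference was not tested.

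Il1r1, the signalling receptor for IL-1, did not pass with stage, with a difference of 0.43 (adjusted p = 0.211) in wild-type and 0.65 (adjusted p = 0.0551) in sash mice. Its partner Il1rap, which also serves the IL-33 receptor, differed by 0.02 and 0.16, and Il17ra, the shared chain of the IL-17 receptors, by -0.18 and -0.38. The smallest adjusted p among the values of Il1rap and Il17ra was 0.113.

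Il5ra and Il13ra2 passed in sash mice and not in wild-type mice. Il5ra, the IL-5 receptor of eosinophils and some B cells, was at 5.37, 1.39 and 0 CPM in sash lesions and at 19.8, 47.2, 18.5, 31.5 and 38.4 CPM in sash tumours, which did not overlap (log2 difference 3.87, SE 0.97, adjusted p = 0.00447). In wild-type mice it was at 26.5, 12.1 and 6.59 CPM in lesions and 16.4, 49.3, 17.8, 16.5 and 95.7 CPM in tumours, which overlapped (1.37, SE 0.75, adjusted p = 0.154). Il5ra had 4 counts in all sash lesions together and passed the filter on low counts through the groups where it was higher. The eosinophil markers Siglecf, Prg2 and Ccr3, 3 of 4 names, summed to 22.9 to 75.1 CPM in sash tumours against 40.1 to 48.3 CPM in sash lesions, and 14.0 to 53.6 CPM in wild-type tumours against 72.5 to 158 CPM in wild-type lesions. Their part in the Il5ra difference was not tested.

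Il13ra2, a decoy receptor for IL-13, was at 10.7, 8.34 and 8.25 CPM in sash lesions and at 49.6, 37.3, 53.1, 115 and 65.9 CPM in sash tumours, all of them higher (log2 difference 2.79, SE 0.72, adjusted p = 0.0054). Wild-type lesions held 23.0, 9.09 and 9.42 CPM and wild-type tumours 38.6, 46.5, 11.5, 3.10 and 29.5 CPM (0.89, SE 0.67, adjusted p = 0.303). The wild-type tumours thus ran from below to above the lesions. Il13ra2 had 19 counts in all sash lesions together and passed the filter on low counts through the tumour groups, where it was higher. Whether the stage difference itself differed between genotypes was tested for all members, and the values are given below.

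Il18, Il7 and Il15 fell between lesions and tumours in sash mice. Il18, a ligand made by colon epithelium, dropped from 10607, 8959 and 5678 CPM in sash lesions to 2410.3, 4151, 1538, 1377 and 2316 CPM in sash tumours (log2 difference -1.84, SE 0.34, adjusted p = 0.000538). Il7, a growth factor for lymphocytes, went from 326, 336 and 270.0 CPM to 150.3, 155, 62.3, 51.5 and 119.9 CPM (-1.53, SE 0.36, adjusted p = 0.00326). Il15, which supports intraepithelial lymphocytes and NK cells, went from 288, 309.8 and 216 CPM to 159, 136, 87.0, 101 and 79.6 CPM (-1.27, SE 0.30, adjusted p = 0.00326). For all 3 genes every sash tumour lay below every sash lesion.

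In wild-type mice the same ligands did not pass. Il18 was at 3434, 2586 and 4838 CPM in lesions and 3841, 2744, 3156, 5055 and 2206 CPM in tumours (log2 difference -0.14, SE 0.34, adjusted p = 0.787), Il7 at 225, 229 and 211 CPM and at 112, 171, 103, 283 and 206 CPM (-0.39, SE 0.37, adjusted p = 0.419). Il15 had means of 205 ± 59.5 CPM (SD, n = 3) and 204 ± 69.1 CPM (SD, n = 5) and a difference of -0.05 (SE 0.31, adjusted p = 0.915). The surface colonocyte markers Car4 and Tmigd1, 2 of 5 names, summed to 33788 to 62476 CPM in sash lesions and 101 to 1482 CPM in sash tumours, and to 27524 to 36005 CPM in wild-type lesions and 257 to 15063 CPM in wild-type tumours. Wild-type tumour 4 had the highest value of these tumours and also the highest Il18 and Il7, and the part of these cells was not tested.

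Il17rb was lower in tumours of both genotypes. Wild-type lesions held 81.3, 80.3 and 33.9 CPM and wild-type tumours 36.1, 12.7, 33.6, 33.1 and 23.6 CPM (log2 difference -1.25, SE 0.47, adjusted p = 0.0467). Sash lesions held 94.9, 58.3 and 21.2 CPM and sash tumours 22.9, 38.9, 19.2, 20.8 and 19.2 CPM (-1.26, SE 0.47, adjusted p = 0.0369). In each genotype lesion 3 was low and inside the range of the tumours. The wild-type call was lost under 18 of 23 alternatives and the sash call under 9 of 22, among them the fit without sash lesion 1 (-0.71, adjusted p = 0.294).

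Of the 16 members tested with stage, 3 were higher and 1 lower in wild-type tumours, where 37% of the 848 genes tested were called (19.5% higher and 17.6% lower). In sash tumours 5 were higher and 4 lower, where 47.5% of genes were called (23.9% higher and 23.6% lower). The median log2 difference of the members was -0.08 in wild-type and 0.24 in sash mice, beside -0.00 and 0.02 over all genes tested. The share of members called lay below that of the panel in wild-type mice and near it in sash mice. The share of all genes whose groups did not overlap with stage is not given here. Statements on overlap with stage thus describe single genes and do not set them apart from the panel. Without wild-type tumours 2 and 4 no member was called between the genotypes in tumours. The wild-type members then called with stage were Il17a, Il1r1, Il1r2 and Il33, all higher. The share of all genes called in these fits is not given here.

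**Figure D1:**
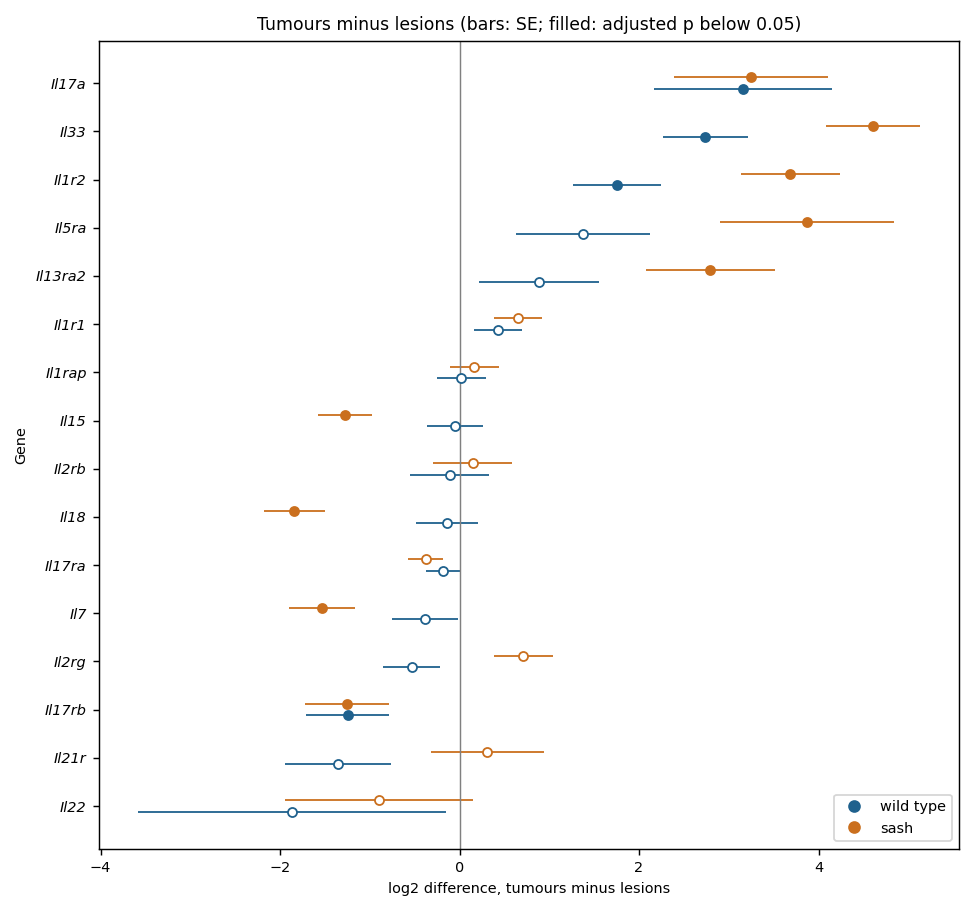
Log2 difference between tumours and lesions for each of the 16 members tested, in wild-type (blue) and sash mice (orange), with bars of 1 SE and filled points for an adjusted p below 0.05. Il17a, Il33 and Il1r2 are filled on the right in both genotypes and Il17rb on the left, whereas Il18, Il7 and Il15 are filled in sash mice only.

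**Figure D2:**
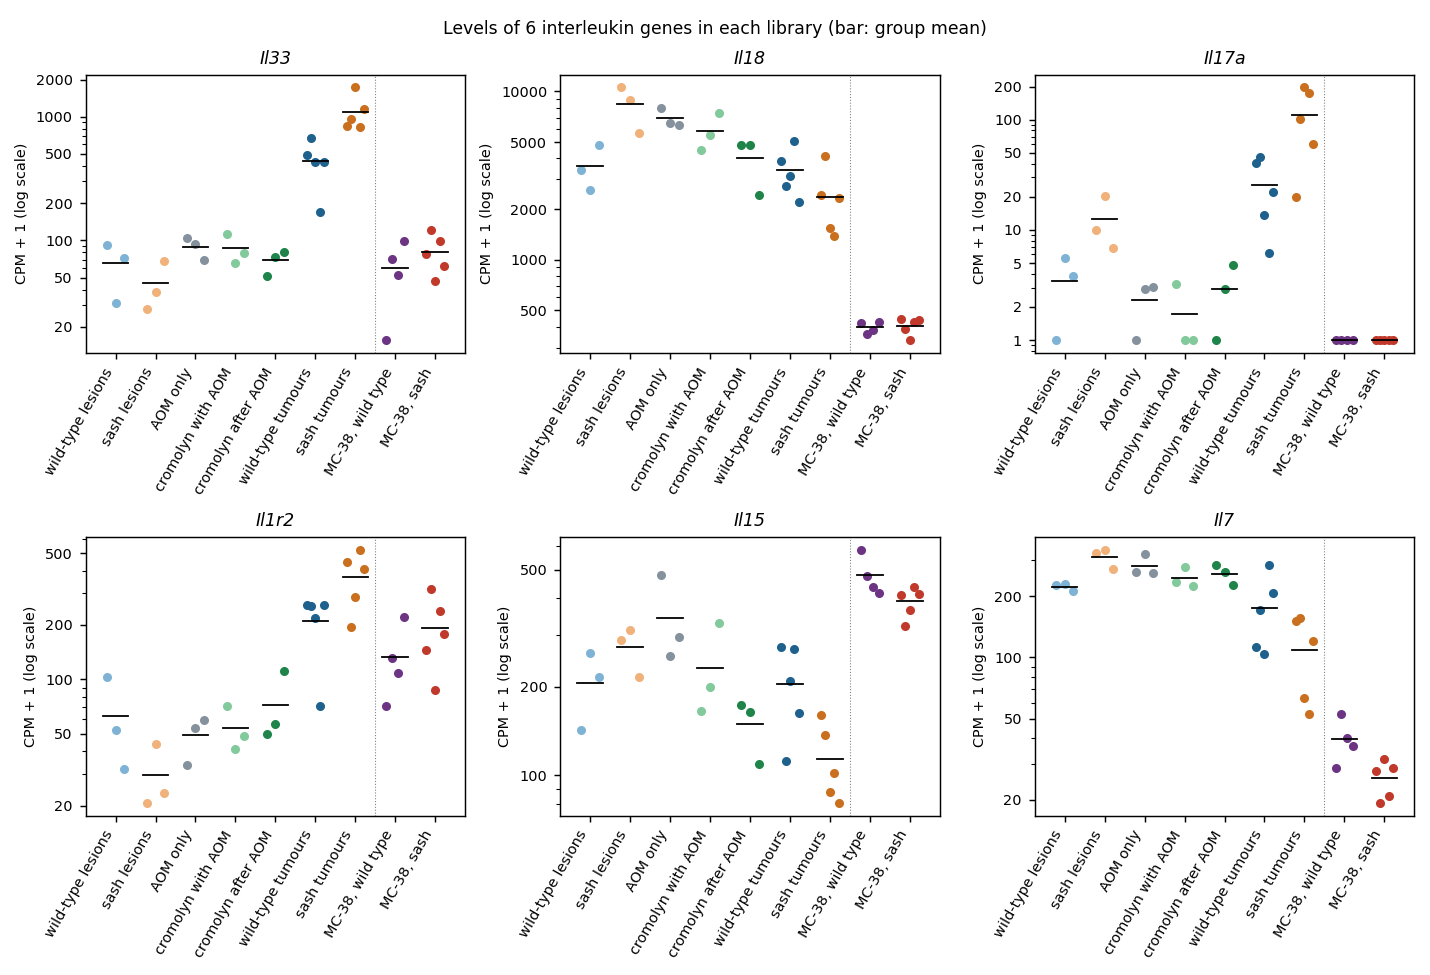
CPM + 1 on a log axis of 6 members in every library, by group, with the group mean as a bar and the separately scaled MC-38 libraries right of the dotted line. Il33 is at 169.6 CPM or more in every AOM tumour and at 119.5 CPM or less in every other library, and Il17a is at 0 in all 9 MC-38 libraries.

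Between sash and wild-type tumours no member passed, and no gene of the panel did (0% of the 797 tested). Of the 15 members tested, 3 had an unadjusted p below 0.05 in edgeR's quasi-likelihood test, as did 19.9% of all genes. DESeq2 called the same 3. The share of all genes called by DESeq2 is not given here or below, so its calls do not set members apart. Il33 and Il17a had the higher values in sash tumours and Il15 the lower. The median of the members was 0.08, beside -0.04 for all genes tested.

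Il33 was the member whose tumour groups did not overlap, among 5.4% of the genes tested. Its mean was 1101 ± 377 CPM (SD, n = 5) in sash and 437 ± 179 CPM (SD, n = 5) in wild-type tumours, a log2 difference of 1.30 (SE 0.34, adjusted p = 0.0740). For Il17a the means were 109.5 ± 74.8 and 24.7 ± 17.1 CPM (2.12, SE 0.68, adjusted p = 0.118), and 4 of 5 sash tumours lay above all wild-type tumours. The T cell markers, all 12 on the panel, summed to 492 to 624 CPM in sash and 287 to 812 CPM in wild-type tumours, overlapping ranges.

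Il22, a ligand of the IL-10 family that acts on epithelium and is often made by the same cells as IL-17A, was too low to be tested. It gave 0, 27, 23, 15 and 4 counts in sash tumours 1 to 5 and 0, 3, 0, 0 and 0 counts in wild-type tumours 1 to 5. The pooled counts, 69 against 3, gave a ratio of 18.0 with a counting interval of 5.90 to 89.3. All wild-type counts came from sample 2, and without the highest sash tumour the ratio was 13.4. Without wild-type tumour 2, Il22 was at least 15.5-fold higher in sash tumours, with 3 counts over the remaining wild-type group as the floor. The interval covers counting error only, and sash tumour 1 had no count at all.

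Il15 had a lower mean in sash than in wild-type tumours, 113 ± 33.9 against 204 ± 69.1 CPM (log2 difference -0.87, SE 0.29, adjusted p = 0.122), with 3 of 5 sash tumours below all wild-type tumours (wild-type samples 1 to 5 at 271, 111, 208, 269 and 162 CPM). Il7 differed by -0.72 (SE 0.38, adjusted p = 0.333). The decoy receptors had log2 differences of 1.29 for Il13ra2 (SE 0.59, adjusted p = 0.254) and 0.79 for Il1r2 (SE 0.37, adjusted p = 0.268). In both, 4 of 5 sash tumours lay above all wild-type tumours, and none of these 4 members passed. The remaining 9 members tested differed by -0.54 (Il18) to 0.35 (Il1r1) with adjusted p of 0.356 or more.

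In lesions Il18 had higher values in sash mice. Sash lesions held 10607, 8959 and 5678 CPM and wild-type lesions 3434, 2586 and 4838 CPM, so the groups did not overlap. The log2 difference was 1.19 (SE 0.28, adjusted p = 0.0669). With the replicate number as a block the value was 1.20 (SE 0.26, adjusted p = 0.0168). No label pairs the lesion samples, so the blocked fit is given as an alternative setting and not as a call. Without wild-type lesion 3 both Il18 (1.43, adjusted p = 0.0275) and Il21r (-2.40, adjusted p = 0.0471) were called. The share of all genes called in that fit is not given here. The AOM-only samples, of the same labelled genotype, age and treatment as the wild-type lesions, held 6356 to 8005 CPM of Il18. That range lies within the range of the sash lesions. Neither genotype nor stage was tested against the AOM-only set. The surface colonocyte markers summed to 33788 to 62476 CPM in sash and 27524 to 36005 CPM in wild-type lesions, but the sum is mostly Car4 and its members went opposite ways: Car4 had a log2 difference of 0.82 (adjusted p = 0.12) and Tmigd1 was lower in sash lesions (-3.07, SE 0.50, adjusted p = 0.0157). Their part was not tested.

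Il21r, the IL-21 receptor of B and T cells, was at 149, 71.2 and 22.6 CPM in wild-type and 37.6, 16.7 and 11.8 CPM in sash lesions (log2 difference -1.93, SE 0.73, adjusted p = 0.201). With the replicate block, again a pairing that no label gives, the value was -1.76 (SE 0.42, adjusted p = 0.0202). The groups overlapped, and in each genotype lesion 1 was the highest. Il2rg, the common gamma chain, was at 424, 224 and 286 CPM in wild-type and 113, 169 and 222 CPM in sash lesions (-0.91, SE 0.36, adjusted p = 0.21), which lay just below. Il2rb, a chain of the IL-2 and IL-15 receptors, differed by -0.14 (SE 0.36, adjusted p = 0.875). B cell markers, 7 of 8 names, summed to 671 to 2426 CPM in wild-type and 42.4 to 238 CPM in sash lesions, and T cell markers to 679 to 1491 and 506 to 709 CPM. Wild-type lesion 1 had the highest sum of both, and the part of these cells was not tested.

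Il7 (0.46, SE 0.22, adjusted p = 0.3), Il1r2 (-1.14, SE 0.55, adjusted p = 0.308) and Il15 (0.37, SE 0.28, adjusted p = 0.578) complete the members of smallest p in lesions. Of 12 members tested, none passed in edgeR, where 2.84% of the 775 genes tested were called, 3 had an unadjusted p below 0.05 and DESeq2 called Il18 alone. The groups did not overlap for Il18, Il7 and Il2rg, as for 24.3% of all genes. The median of the members was -0.06, beside 0.05 for all genes tested.

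Members too low to test in lesions included the type 3 ligands. Il22 gave 22, 18 and 0 counts in sash lesions and 3, 1 and 2 in wild-type lesions, a pooled ratio of 7.31 (counting interval 3.08 to 21.1) that was 4.54 without sash lesion 1. Il17a gave 5, 14 and 5 counts in sash and 0, 3 and 3 in wild-type lesions (ratio 4.38, interval 1.75 to 13.1, and 2.87 without sash lesion 2). Il5ra was lower in sash lesions, with 3, 1 and 0 counts against 15, 8 and 7. The wild-type to sash ratio was 6.84 (interval 2.41 to 26.7), 4.56 without wild-type lesion 1 and 19.8 without sash lesion 1. The value of 19.8 rests on 1 count left in the sash lesions, below the floor of 3 counts. Eosinophil markers summed to 72.5 to 158 CPM in wild-type and 40.1 to 48.3 CPM in sash lesions, and their part in the Il5ra counts was not tested. Il21 gave 7 counts in wild-type lesions and 0 in sash lesions.

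The difference of the genotype effect between tumours and lesions was itself tested for the 16 members. None passed in edgeR (0% of 848 genes were called), 6 members and 15.1% of all genes had an unadjusted p below 0.05, and DESeq2 called Il18. Il18 had the smallest p, with a genotype effect lower by 1.71 in tumours than in lesions on the log2 scale (-1.71, SE 0.49, adjusted p = 0.17). Il33 (1.87, SE 0.62, adjusted p = 0.203), Il1r2 (1.93, SE 0.67, adjusted p = 0.225) and Il2rg (1.24, SE 0.46, adjusted p = 0.251) pointed to a higher sash value in tumours, Il15 (-1.22, SE 0.44, adjusted p = 0.247) and Il7 (-1.14, SE 0.53, adjusted p = 0.314) to a lower one. Stage effects that passed in sash mice and not in wild-type mice are therefore not shown to differ between the genotypes.

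**Figure D3:**
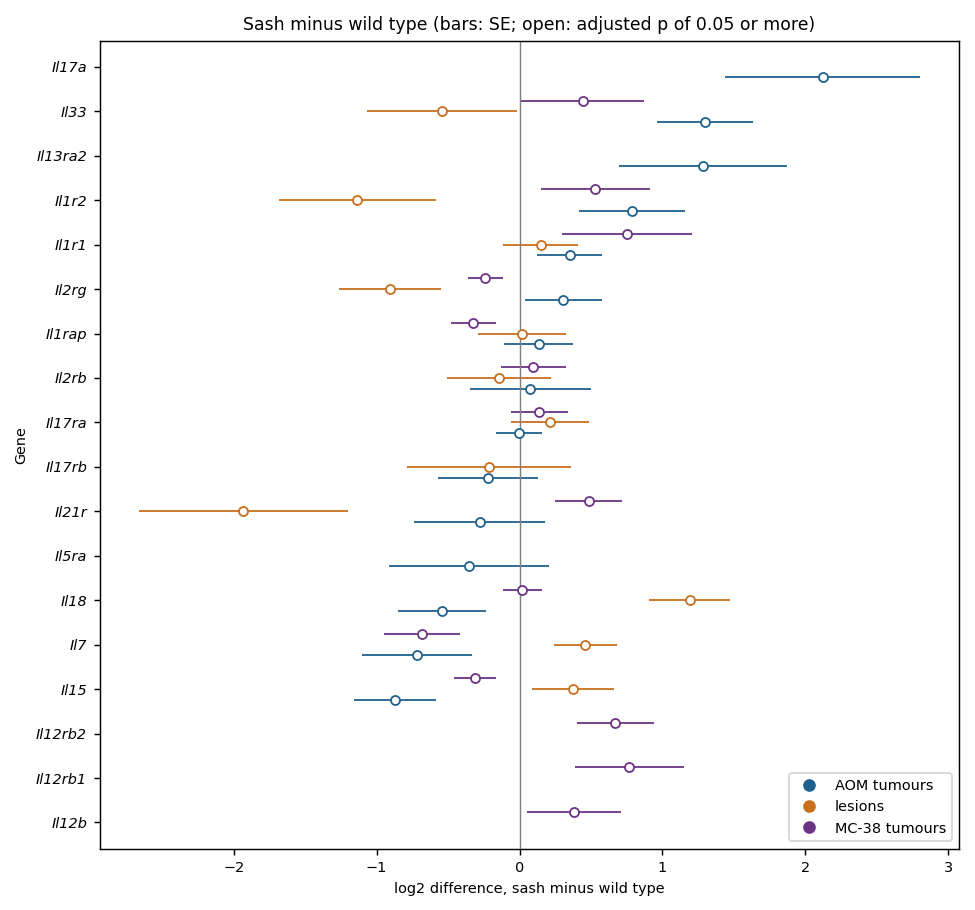
Log2 difference of sash minus wild type for the members tested in AOM tumours (blue), lesions (orange) and MC-38 tumours (purple), with bars of 1 SE. Every point is open, since no adjusted p was below 0.05. Il33 and Il1r2 lie right of 0 in both kinds of tumour and left of it in lesions, and Il18, Il7 and Il15 lie right of 0 in lesions.

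With cromolyn given after AOM, Il15 fell, and it was the member that passed. It was at 477, 254 and 294 CPM with AOM only and at 173, 164 and 109 CPM with cromolyn after AOM, with no overlap (log2 difference -1.23, SE 0.31, adjusted p = 0.0428). With cromolyn during AOM it was at 165, 199 and 329 CPM, between and overlapping both (-0.59, SE 0.31, adjusted p = 0.357). The call was close to the threshold: it was lost in 7 of the 9 fits that left out 1 library (each AOM-only library, each library with cromolyn after AOM, and library 2 with cromolyn during AOM), with adjusted p of 0.0525 to 0.197. It was also lost with the replicate number as a block (adjusted p = 0.0961).

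Il18 followed the same order without passing: 8005, 6475 and 6356 CPM with AOM only, 4499.8, 5485 and 7470.3 CPM with cromolyn during AOM and 4832, 4815 and 2407 CPM with cromolyn after AOM. The last group lay below all AOM-only samples (log2 difference -0.81, SE 0.27, adjusted p = 0.135). Surface colonocyte markers summed to 31510 to 44897 CPM with AOM only, 12404 to 33722 CPM with cromolyn during AOM and 8881 to 23402 CPM with cromolyn after AOM, where sample 3 was lowest for these markers, for Il15 and for Il18. This order is that of Car4 (log2 difference with cromolyn after AOM -1.25, adjusted p = 0.153), whereas Tmigd1 had a value of 0.49 (adjusted p = 0.135). Their part in the Il15 and Il18 values was not tested.

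Il17rb was at 32.7, 32.0 and 22.3 CPM with AOM only and at 67.2, 57.1 and 64.7 CPM with cromolyn after AOM, with no overlap (log2 difference 1.09, SE 0.31, adjusted p = 0.0705), while cromolyn during AOM gave 37.4, 53.6 and 35.5 CPM (0.54, SE 0.32, adjusted p = 0.419). Il13ra2 was at 18.7, 3.76 and 2.03 CPM with AOM only, 50.6, 19.1 and 16.6 CPM with cromolyn during AOM (1.85, SE 0.68, adjusted p = 0.209) and 32.6, 22.9 and 32.4 CPM with cromolyn after AOM (1.86, SE 0.68, adjusted p = 0.144). All AOM-only values of both genes lay below the values with cromolyn after AOM, and neither gene passed. Il13ra2 had 11 counts in all AOM-only samples together, and its values of 3.76 and 2.03 CPM lay below the floor of 3 counts. It passed the filter on low counts through the groups with cromolyn, where it was higher. Both comparisons share the AOM-only samples.

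Il1rap had lower values with cromolyn during AOM, 66.0, 80.4 and 97.1 CPM against 140.2, 122 and 119.7 CPM with AOM only (log2 difference -0.66, SE 0.24, adjusted p = 0.194), and at 83.5, 101 and 103 CPM with cromolyn after AOM (-0.43, SE 0.23, adjusted p = 0.3). The AOM-only samples lay above all 6 samples with cromolyn. Il21r was at 28.0, 16.9 and 30.4 CPM with AOM only, 68.2, 28.7 and 28.4 CPM with cromolyn during AOM and 18.3, 40.0 and 81.9 CPM with cromolyn after AOM, and overlapped throughout (log2 differences 0.72 and 0.88, adjusted p = 0.509 and 0.376). Sample 1 with cromolyn during AOM and sample 3 with cromolyn after AOM were the highest, and these libraries had the highest B cell marker sums of their groups (2099 and 1870 CPM). Il17ra (-0.28, adjusted p = 0.539) was among the 6 members of smallest p with cromolyn during AOM.

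Of 13 members tested in this experiment, 0 passed with cromolyn during AOM, where 0.26% of 768 genes were called, and 1 with cromolyn after AOM, where 4.82% were called (2.47% lower). In edgeR's test 2 and 4 members had an unadjusted p below 0.05, against 16.7% and 21.9% of all genes, and DESeq2 called none and 2 (Il15 and Il18). The groups did not overlap for 2 members with cromolyn during AOM, where this held for 24.5% of all genes, and for 5 members with cromolyn after AOM, where it held for 29.3%. The median of the members was -0.00 and -0.15, beside -0.03 and 0.01 over all genes. Between the cromolyn schedules no member passed (0% of 768 genes called) and none had an unadjusted p below 0.05, while 8.46% of all genes had, and DESeq2 called no member. The groups did not overlap for 2 members, beside 12.9% of all genes. There Il15 had a log2 difference of 0.64 (during minus after, SE 0.32, adjusted p = 0.582), Il18 of 0.54 (SE 0.27, adjusted p = 0.604) and Il17rb of -0.55 (SE 0.30, adjusted p = 0.607). Il1r1 (0.23), Il1r2 (-0.43) and Il33 (0.33) had adjusted p of 0.671 or more.

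**Figure D4:**
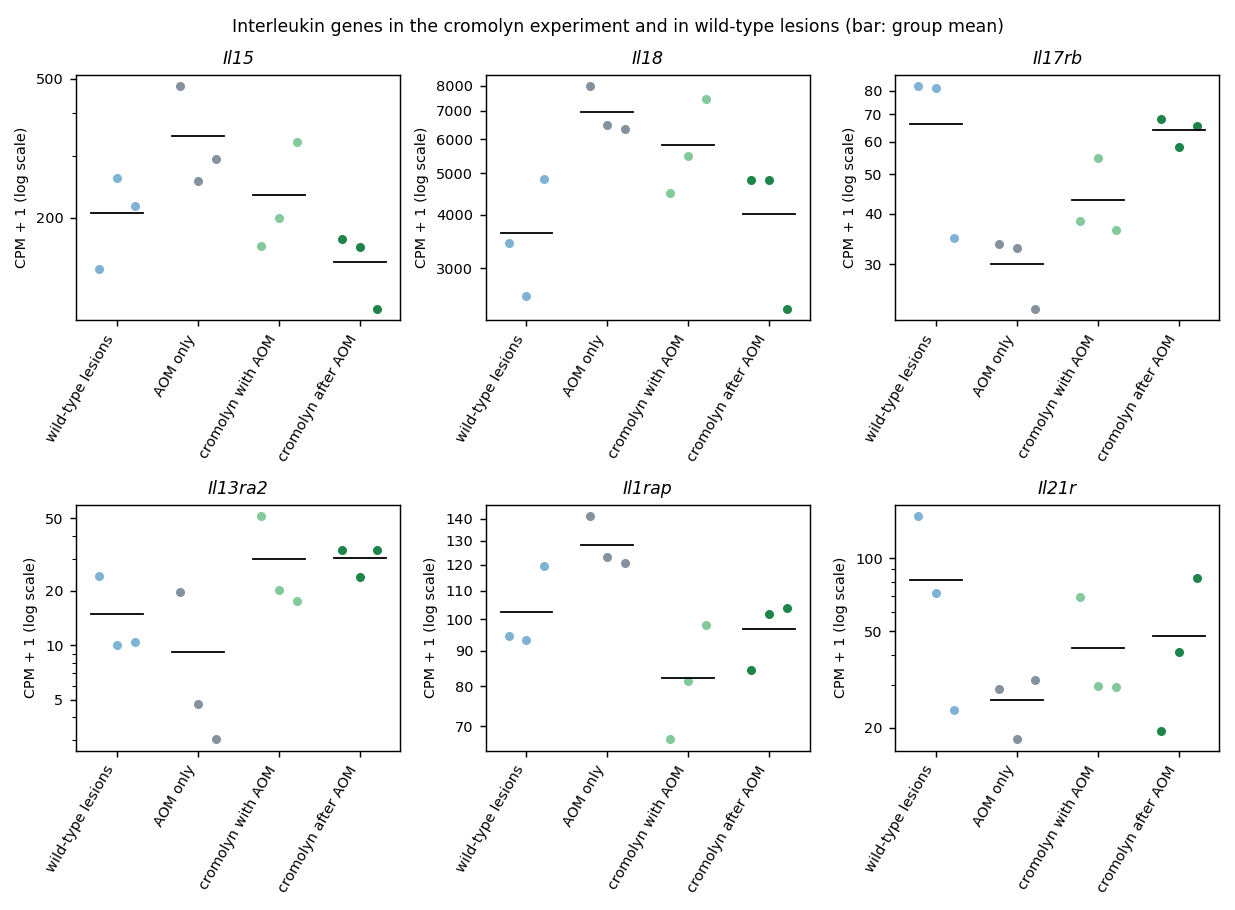
CPM + 1 on a log axis of 6 members in each library of the wild-type lesion, AOM-only and cromolyn groups, with group means as bars. The 3 Il15 values with cromolyn after AOM (109 to 173 CPM) lie below the 3 AOM-only values (254 to 477 CPM). The wild-type lesions share the labelled treatment of the AOM-only group. They lie below that group for Il18 and Il1rap and above it for Il17rb (33.9 to 81.3 against 22.3 to 32.7 CPM). For Il21r wild-type lesions 1 and 2 lie above it and lesion 3 within its range. Only Il18 was called between these groups with all libraries.

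The wild-type lesions and the AOM-only group share the labelled genotype, age and treatment, and 15.6% of the 762 genes tested were called between them. Among the 12 members tested, Il18 was called (6.96% of genes were called lower), at 3434, 2586 and 4838 CPM in the lesions against 8005, 6475 and 6356 CPM with AOM only (log2 difference -0.99, SE 0.24, adjusted p = 0.0266). The groups did not overlap for Il18 and 3 other members, beside 40.6% of all genes, and the Il18 call was lost in 5 of the 6 fits that left out 1 library, with adjusted p of 0.0612 to 0.133. Without wild-type lesion 3, Il17rb (1.43, adjusted p = 0.0119), Il21r (2.09, adjusted p = 0.00857) and Il1r1 (-0.78, adjusted p = 0.0259) were called as well. The share of all genes called in that fit is not given here. With all libraries the log2 difference was 1.10 for Il17rb (SE 0.43), -0.78 for Il15 (SE 0.30), 1.62 for Il21r (SE 0.64), -0.58 for Il1r1 (SE 0.24) and -0.39 for Il7 (SE 0.20), with adjusted p from 0.108 to 0.206. Apart from the Il18 range given above, levels of the cromolyn experiment are not set beside those of the sash lesions.

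MC-38 tumours held several members that were near the floor elsewhere. Il12b, the p40 chain of IL-12 and IL-23, and the IL-12 receptor chains Il12rb1 and Il12rb2 passed the filter on low counts here and in no other comparison. Il17a, Il17b and Il22 had 0 counts in all 9 libraries, where 3 counts stand for 3.17 to 6.16 CPM, and Il17rb had 1 count in all. Il18 was at 331 to 445 CPM and Il7 at 18.3 to 51.8 CPM.

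No member passed between sash and wild-type hosts. Il7 had lower values in sash hosts, at 24.6 ± 5.25 CPM (SD, n = 5) against 38.6 ± 10.1 CPM (SD, n = 4), with 4 of 5 sash tumours below all wild-type tumours (log2 difference -0.68, SE 0.26, adjusted p = 0.166). Il12rb2, the IL-12 receptor chain of Th1 and NK cells, was at 24.6, 33.2, 33.97, 36.6 and 32.3 CPM in sash tumours 1, 2, 4, 5 and 6 and at 19.5, 11.7, 26.4 and 22.4 CPM in wild-type tumours 1, 3, 4 and 5 (0.67, SE 0.27, adjusted p = 0.18). Il12rb1 had a difference of 0.77 (SE 0.38, adjusted p = 0.267) and Il21r of 0.48 (SE 0.23, adjusted p = 0.252), with higher values in sash hosts. T cell markers summed to 2717 to 4951 CPM in sash and 2415 to 3965 CPM in wild-type hosts and B cell markers to 35.7 to 105 and 28.5 to 43.3 CPM, and their part was not tested. Il15 (-0.31, SE 0.15, adjusted p = 0.252) and Il1rap (-0.32, SE 0.16, adjusted p = 0.256) had lower ones.

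Il13ra2 and Il5ra did not pass the filter on low counts in MC-38 tumours and are given by counts. Il13ra2 was at 8.21, 41.5, 6.79, 14.4 and 9.69 CPM in sash and 1.62, 3.88, 2.11 and 4.48 CPM in wild-type hosts, without overlap. The pooled counts were 52 and 9, a ratio of 5.57 (counting interval 2.72 to 12.9) that was 3.54 without sash tumour 2. Il5ra gave 1, 5, 2, 3 and 1 counts in sash hosts and 0 in all wild-type hosts, at least 3.85-fold higher when 3 counts over the whole wild-type group are taken as the floor and 2.76-fold without sash tumour 2. Eosinophil markers summed to 28.9 to 453 CPM in sash hosts, highest in tumour 2, and to 11.4 to 50.8 CPM in wild-type hosts, and their part in the Il5ra counts was not tested.

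Of the 14 members tested in MC-38 tumours none was called in edgeR, beside 1.26% of the 714 genes tested. An unadjusted p below 0.05 was found for 2 members and for 21.8% of all genes, and DESeq2 called no member. Of these 14, 0 had groups that did not overlap, beside 8.68% of all genes. The median log2 difference was 0.26, with 10 of 14 values above 0, beside -0.01 over all genes. The other 8 members tested differed by -0.24 (Il2rg) to 0.75 (Il1r1), with adjusted p from 0.269 to 0.959.

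**Figure D5:**
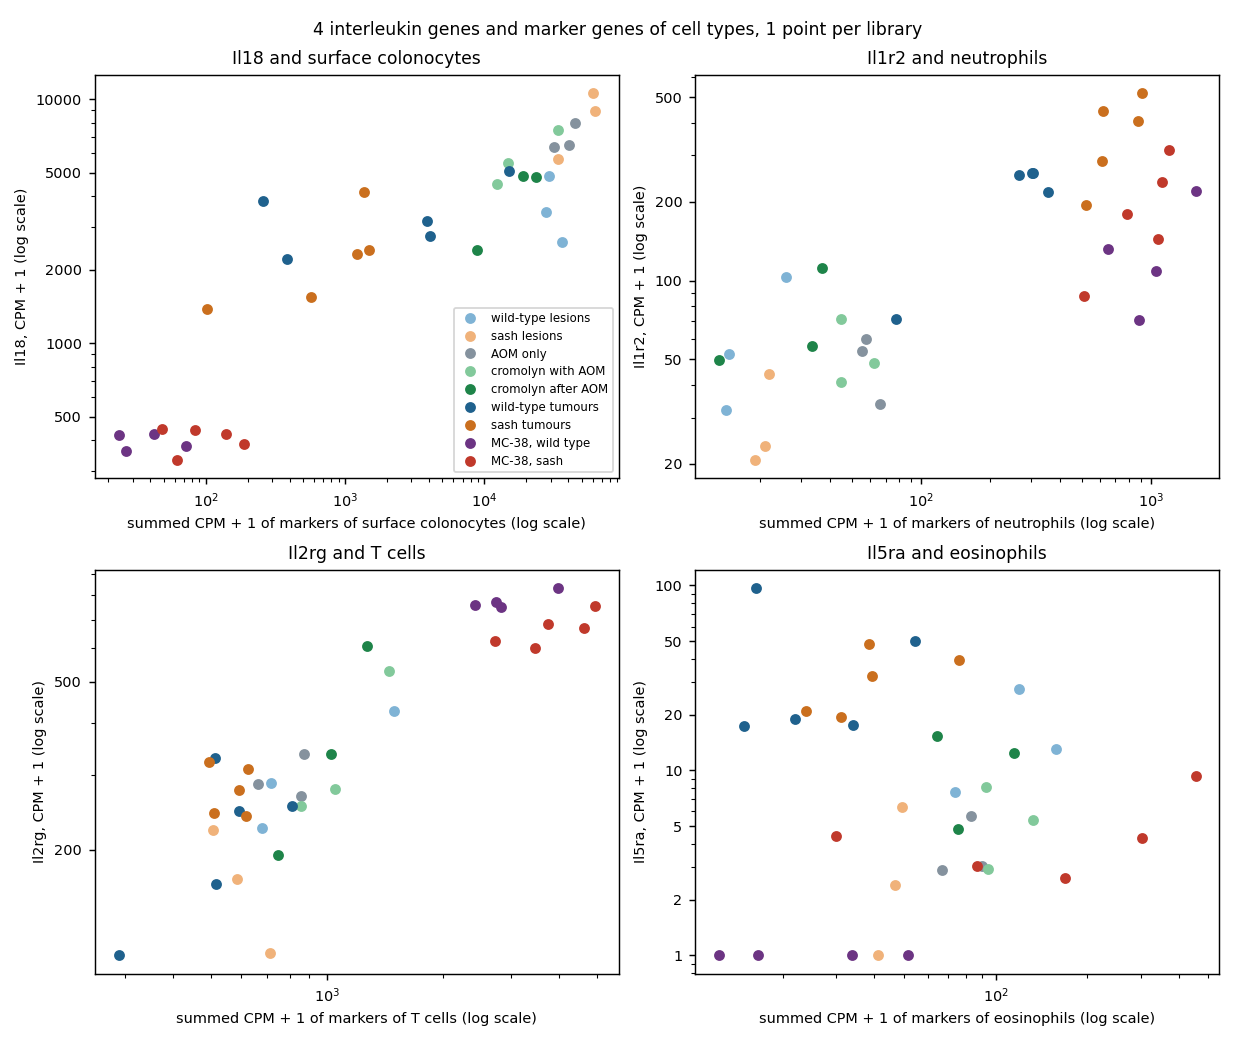
CPM + 1 of 4 members against the summed CPM + 1 of marker genes of a cell type, both on log axes, with 1 point per library coloured by group. Il18 is lowest in the MC-38 tumours, where surface colonocyte markers are low too (22.7 to 186 CPM), with AOM sash tumour 4 (101 CPM) inside that range. Il1r2 and neutrophil markers are both low in the 14-week groups, and Il5ra is high in AOM tumours that have few eosinophil markers.

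Il2rg and Il2rb had 1 high library in some groups. With cromolyn after AOM, sample 3 held 606 CPM of Il2rg and 103 CPM of Il2rb against 193 to 337 CPM and 21.0 to 32.6 CPM in the other two. In 4 of the 5 groups of 14-week mice the library with the highest Il2rg also had the highest sum of T cell markers and of B cell markers. This held for Il2rb, Il21r, Il13ra2, Il33 and Il22 too, though for Il22 the AOM-only group had 1 count in all. Il21 is left out, since it had 0 counts in all sash lesions and so no highest library there. The other members matched in 0 to 3 groups. No test was made of this.

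The remaining ligands were near the floor. Il2 had at most 11 counts in a library and no count in any sash tumour, and Il21 at most 5 counts. Il17b was seen in 4 libraries with 1 to 4 counts. Il12b, Il12rb1 and Il12rb2 had at most 12 counts in any colon or AOM tumour library. 

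Genes that pass on interleukin signals were followed through a list of 40 names, of which 14 are on the panel, among them Casp1, Csf2rb, Ebi3, Jak1, Jak2, Myd88, Pycard, Sigirr, Socs1, Socs2, Socs3, Stat3 and Stat4. In tumours against lesions, 1 was higher and 4 were lower in wild-type mice and 2 were higher and 5 lower in sash mice, beside the 37% and 47.5% of all genes called in these comparisons. Casp1, the protease that matures IL-18 and IL-1b, fell by 1.38 and 1.92 on the log2 scale (adjusted p = 0.00149 and 7.67e-05), and Pycard, its adaptor, fell by 1.47 in sash mice (adjusted p = 0.00326). Socs1 and Socs2, inhibitors of cytokine signalling, and Sigirr, an inhibitory receptor of the IL-1 family, were lower in both genotypes. For Sigirr the wild-type value was near the threshold (-1.32, SE 0.49, adjusted p = 0.0444 in edgeR). All wild-type tumours lay within the range of the wild-type lesions for it. Stat3, through which IL-22 and IL-6 signal, was higher in wild-type mice (0.58, SE 0.15, adjusted p = 0.00836), and Csf2rb, the beta chain shared with the IL-5 receptor, was higher in sash mice (1.64, SE 0.41, adjusted p = 0.00421), as was Ebi3, a chain of IL-27 (1.15, SE 0.34, adjusted p = 0.0121).

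With cromolyn after AOM, Socs1 was higher (1.53, SE 0.37, adjusted p = 0.0411) and Casp1 lower (-0.53, SE 0.11, adjusted p = 0.0332). None of the signalling genes passed between sash and wild-type mice in tumours, lesions or MC-38 tumours, or with cromolyn during AOM, in edgeR. Unadjusted p below 0.05 numbered 1, 2, 2 and 3 in these comparisons, where 19.9%, 19.1%, 21.8% and 16.7% of all genes had one.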

How the data were processed

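RNA was extracted with RNeasy and read with a QIAseq targeted mouse immuno-oncology panel on a MiSeq, per the labels' protocols. The authors deposited raw counts per gene in 2 tables, of 25 and 9 libraries. The submitters' processing notes name DESeq2 and mm9, with the aligner and the counting of reads or molecular tags not given in the sources used here. Of 36 samples, 34 were analysed and 2 MC-38 samples were not analysed here. The 5 control entries, all at 0, were left out.

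Each comparison was fitted with edgeR 4.0.16 (quasi-likelihood test, robust, R 4.3.3, limma 3.58.1) over all genes with TMM scaling and filterByExpr (minimum count 10, minimum total 15). P-values were adjusted by Benjamini-Hochberg over all genes tested, with a threshold of 0.05, and SE is the log2 difference divided by the root of F. Tested on simulated counts with the same spread for all genes, the fit recovered the direction and size of changes put into well-counted genes. The simulation did not cover members with few counts or a spread that differs between genes. Members that failed the filter are given as counts, with ratios of pooled counts and exact 95% intervals. Alternatives were DESeq2 1.42.0, other scalings, no filter, a replicate block and leaving out libraries.

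Named members are all that passed, filled up to 6 by smallest unadjusted p where fewer than 4 passed. The members and lists were chosen with earlier results of these data known. Same-numbered samples had r of 0.14 to 0.50 over 3 pairs of lesions and -0.03 to 0.63 over 3 pairs of MC-38 tumours. No label pairs the samples of any comparison, and they share only a number. The blocked fits are therefore alternatives and support no call. No label says that replicates are separate mice, so a p-value here reflects the spread among these libraries, possibly technical. Chi-square per degree of freedom between replicates was 5.85 to 194, so no 2 libraries were duplicates.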

Additional observations from a re-analysis of the deposited data

Results flagged for a closer look

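Over the 59 sets of values tested (1 member in 1 group of 4 or 5 libraries), 5 held a library far from the others by Dixon's criterion, where chance gives about 1 in 20. Il1r2 was at 70.3 CPM in wild-type tumour 4, against 216 to 256 CPM in the other 4. Il17rb was at 38.9 CPM in sash tumour 2, against 19.2 to 22.9 CPM. In MC-38 tumours, sash tumour 2 held 41.5 CPM of Il13ra2, against 6.79 to 14.4 CPM, and sash tumour 1 held 129 CPM of Il1rap, against 97.9 to 99.7 CPM. Wild-type MC-38 tumour 4 held 143 CPM of Il17ra, against 92.6 to 101 CPM.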

How the results depend on the processing

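Counts of members called moved by more than 1.5 times in these cases. With DESeq2, 3 were called between sash and wild-type tumours (Il33, Il17a and Il15), 1 in lesions (Il18), 2 with cromolyn after AOM (Il15 and Il18) and 1 for the difference of the genotype effect (Il18). Without a filter on low counts, 1 was called in lesions (Il18). With housekeeping scaling by Rpl13a and Tfrc, 0 were called with cromolyn after AOM. With the replicate number as a block, 2 were called in lesions and 0 with cromolyn after AOM, and in both the samples share only a number. Leaving out 1 library gave 0 to 2 calls in lesions. Il22 was called there without sash lesion 3, the library with no count of it, after which Il22 passed the filter through its high group. The calls numbered 0 to 1 with cromolyn after AOM, 2 to 4 between wild-type tumours and lesions and 0 to 4 between wild-type lesions and AOM only. Between sash tumours and lesions they numbered 8 to 11, which stayed within 1.5 times, and in every other comparison 0. The share of all genes called under these alternatives is not given here, so the calls do not set the members apart from the panel. Between the cromolyn schedules, Il1r1 (-0.14) and Il33 (-0.040) reversed with housekeeping scaling, and Il1r2 ran from -0.70 to 0.012 when 1 library was left out. The cause was not tested. Of the values of named members, 962 kept direction and side of the threshold, 44 lost and 14 gained a call and 3 reversed. Housekeeping scaling, on 2 genes, moved the panel median by -0.44 to 0.12 on the log2 scale. Members with few counts (Il17a, Il22, Il5ra and Il13ra2 in the 14-week groups) are limited by depth.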
